A study of Mus musculus with 16 samples.

Results

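The measurements concern 6 long noncoding RNAs, which are long transcripts that encode no known protein: Dubr, Neat1, Malat1, Gas5, Snhg1 and Snhg5. They were taken by name from tables of read counts for 49585 genes. Dubr was chosen because it was called as changed between P2H2KO and P2H2WT libraries. The value that chose it, an adjusted p of 0.0462 in edgeR's quasi-likelihood test, lay just inside the threshold of 0.05, and it is given as a description that supports nothing. The other 5 were chosen as well-known noncoding RNAs, and their adjusted p in that comparison was 0.9999 for each (edgeR). The RNA came from FACS-sorted cells, labelled neutrophils, from the bones of C57BL/6 mice aged 8 to 12 weeks. P2KO libraries were labelled Vav:cre-PHD2f/f, a deletion of the oxygen sensor PHD2 (gene Egln1) by a recombinase that is active across blood-forming cells and not in neutrophils alone. P2H2KO libraries were labelled Vav:cre-PHD2/HIF2ff/ff, a deletion of PHD2 together with HIF2α (gene Epas1). P2WT and P2H2WT were the controls of the respective lines, labelled wild type, and the sources used here do not say whether they carried the floxed alleles or the recombinase. Each of the 4 groups held 4 libraries. Nothing in the labels says that each library came from a separate mouse, so p-values measure the spread between these libraries, which may be technical.

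When oxygen is present, PHD2 modifies the α subunits of hypoxia-inducible factors so that they are destroyed, so its loss is known to raise the transcription of hypoxia genes such as those of glycolysis. Neat1 is the scaffold of paraspeckles, bodies in the nucleus that retain proteins and edited RNAs. Malat1 resides in nuclear speckles, where splicing factors are stored. Gas5, Snhg1 and Snhg5 are host genes: small nucleolar RNAs (snoRNAs), which guide the chemical modification of ribosomal RNA, are cut from their introns, and the spliced host RNA is short-lived because translating ribosomes expose it to nonsense-mediated decay. Dubr has been described in muscle precursor cells as a repressor of the gene Dppa2 during differentiation.

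Library totals ran from 23450746 to 28601284 counts. All 24 pairs of libraries of the same group differed by more than counting noise (chi-square per degree of freedom at least 10.6), and none was a duplicate. Xist and Ddx3y followed the suffix of the library titles (m or f) in 16 of 16 libraries. Egln1 had a log2 fold change of 0.04 ± 0.09 (SE, adjusted p = 1) in P2KO and of 0.03 ± 0.08 (SE, adjusted p = 0.9999) in P2H2KO against controls, and Epas1 one of 0.66 ± 0.29 (SE, adjusted p = 0.9999; edgeR) in P2H2KO. Neither targeted gene was thus lower where it was labelled as deleted. A count over a whole gene need not fall when part of the gene is removed, so these values cannot check the deletions, and P2KO and P2H2KO below mean libraries labelled so. Levels are given as CPM, read counts relative to library sizes scaled by the TMM method. The 14 neutrophil markers examined summed to between 34760 and 89040 CPM, and none was at 0 in any library. The 11 erythroid markers, of cells that were not meant to be sorted, summed to between 25280 and 51360 CPM, and markers of B cells, T and NK cells, and monocytes and macrophages were also found in every library. Within bulk libraries of this kind, fewer cells of a type and less RNA per cell cannot be told apart.

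Dubr (ENSMUSG00000022639) is a lincRNA gene of 5 transcripts on the minus strand at chr16:50719294-50732773 (GENCODE M21, GRCm38, the same assembly as mm10), with 4679 exonic bases. Its promoter is shown because the RNA was followed in cells labelled as lacking a regulator of hypoxia-inducible factors, which bind the letters ACGTG or GCGTG. The 300 bases from RefSeq (GRCm38.p6, chr16:50732724-50733023, minus strand, 250 before the start and 50 from it on) read as follows, 5′ to 3′, with each ACGTG or GCGTG in capitals.
Dubr: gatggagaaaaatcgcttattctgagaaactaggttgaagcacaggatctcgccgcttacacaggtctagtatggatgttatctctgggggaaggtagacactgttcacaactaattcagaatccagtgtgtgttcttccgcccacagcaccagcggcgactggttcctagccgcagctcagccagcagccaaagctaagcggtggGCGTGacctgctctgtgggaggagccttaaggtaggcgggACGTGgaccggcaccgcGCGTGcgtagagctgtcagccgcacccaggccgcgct
The window holds 1 ACGTG and 2 GCGTG, which begin at positions -4, -44 and 14 relative to the start (the first transcribed base is 1). Both strands were searched, and overlapping matches were each counted. Of 32851 mouse promoters of the same length, 19.6% hold ACGTG, 32.4% hold GCGTG, and 8.93% hold 3 or more matches in all. The match is one of letters, and binding was not measured.

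For the 3 host genes the bases around the start are shown instead, since transcripts of snoRNA host genes often begin, like messenger RNAs of the translation machinery, with a run of pyrimidines (a 5′ terminal oligopyrimidine tract). The 60 bases from 20 before to 40 after the RefSeq start (GRCm38.p6) follow, 5′ to 3′, with the longest run of C or T that reaches into the 20 bases around the start in capitals.
Gas5, the first of 2 annotated starts (chr1:161034581-161034640, plus strand): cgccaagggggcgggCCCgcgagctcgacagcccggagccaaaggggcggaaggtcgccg
Gas5, the second start (chr1:161035146-161035205, plus strand): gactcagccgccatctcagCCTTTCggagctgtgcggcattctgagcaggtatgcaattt
Snhg1 (chr19:8723467-8723526, plus strand): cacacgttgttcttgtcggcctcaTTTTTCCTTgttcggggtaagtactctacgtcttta
Snhg5 (chr9:88522858-88522917, minus strand): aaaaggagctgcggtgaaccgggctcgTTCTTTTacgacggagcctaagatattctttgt
The run is 9 bases in Snhg1, 7 in Snhg5, and 3 and 6 at the first and second start of Gas5. Runs at least as long occur at this place in 9.55%, 19.7%, 82.9% and 29.2% of promoters, respectively. Counted from the annotated start as base 1, the run begins at 5 in Snhg1, at 8 in Snhg5 and at -5 and -1 in Gas5. At the second Gas5 start the run spans the annotated start, so a transcript from that base opens with the pyrimidines CTTTC. At the first Gas5 start the longest run ends before the annotated start, and in Snhg1 and Snhg5 it begins after it. In Snhg1 a shorter run spans the annotated start, so a transcript from that base opens with the pyrimidines CTC. Whether transcripts in these cells begin at the annotated bases cannot be told from these sequences. In Dubr the longest run there is 2 bases. The promoters of Snhg5 and Snhg1 held 5 and 3 matches to ACGTG or GCGTG, that of Malat1 held 1, and that of Gas5 held 0 at the first start and 2 at the second. At least 5 matches occur in 1.66% of promoters.

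Neat1 (ENSMUSG00000092274) lies at chr19:5824708-5845478 and Malat1 (ENSMUSG00000092341) at chr19:5795690-5802672, both on the minus strand and 22036 bases apart. Gas5 (ENSMUSG00000053332) lies at chr1:161034422-161038539 and has 10 snoRNA genes within it. Snhg1 (ENSMUSG00000108414) lies at chr19:8723475-8726443 with 8 snoRNA genes, and Snhg5 (ENSMUSG00000097195) at chr9:88521050-88522929 with 2. The counts of all 20 nested snoRNA genes were 0 in every library. They lie within annotated host exons on the same strand, so reads from them may have been dropped or given to the host, and the zeros do not show which. Of 26 genes that share exonic bases with a member, 25 had no count, among them Mir6363 inside Dubr. The exception was Gm37376, antisense to Malat1, with 0 to 4 counts per library. Whether the authors' counting used strand is not given in the sources used here.

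Per base of exon, with the exons of all annotated transcripts of a gene joined, Malat1 was the most abundant of the 6 and Neat1 the least. Median levels over 16 libraries, as CPM per 1000 exonic bases, were 37.5 for Malat1, 15.5 for Gas5, 4.67 for Snhg5, 4.66 for Snhg1, 3.24 for Dubr and 0.912 for Neat1. Malat1 lay above Gas5, Gas5 above Snhg5, and Dubr above Neat1 in 16 of 16 libraries. Snhg5 and Snhg1 could not be ordered, since Snhg5 was the higher in 9 of 16 libraries, and Snhg1 lay above Dubr in 12. Among 331 long noncoding genes with a mean of at least 1 CPM, the ranks on this scale were 7 for Malat1, 19 for Gas5, 46 for Snhg5, 47 for Snhg1, 59 for Dubr and 194 for Neat1. Long noncoding here means GENCODE types such as lincRNA, antisense and processed transcript. That class holds some entries that bear names of protein-coding genes, among them Ifi30 and Cct6a, both above Malat1 on this scale. By CPM, without regard to length, the ranks among 3445 detected long noncoding genes were 3 for Malat1, 14 for Gas5, 30 for Neat1, 34 for Dubr, 41 for Snhg1 and 61 for Snhg5. The place of Neat1 thus depends on the scale, since its length here is that of the union of its transcripts, 20771 bases, which includes the long isoform. Its level per base is understated if the short isoform gave most of its reads, and gene counts do not separate isoforms. The same limit holds for the host genes, whose joined lengths of 3760 (Gas5), 2969 (Snhg1) and 1730 bases (Snhg5) take in the nested snoRNA genes. Their levels per base are understated if shorter spliced transcripts gave most of their reads. The orders and ranks per base therefore hold for these joined lengths only.

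**Figure D1:**
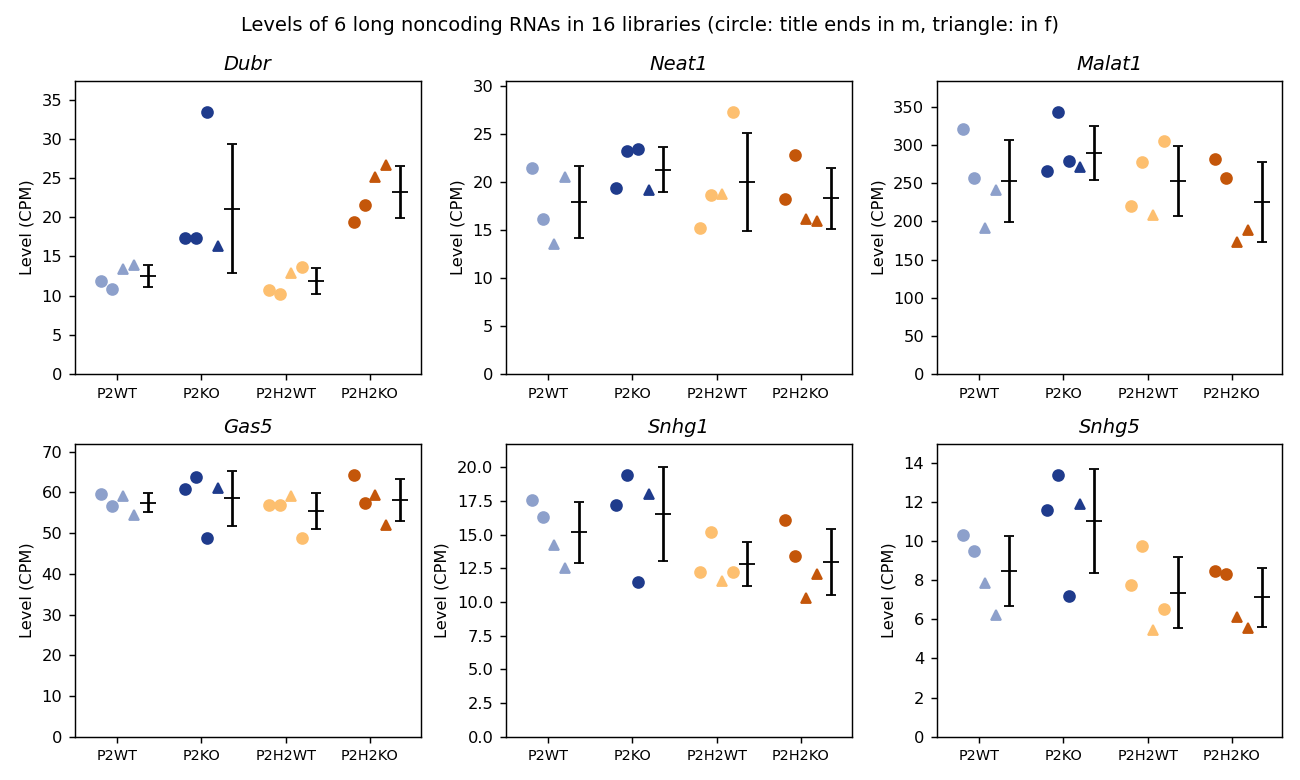
CPM of each RNA (y axis, from 0) in every library of the 4 groups (x axis); circles are libraries whose titles end in m, triangles those that end in f, and the black mark with its bar is the group mean ± SD (n = 4). Dubr is at 10.2 to 13.95 CPM in the 8 control libraries and at 16.3 to 33.4 CPM in the 8 deficient ones, while the groups of the other 5 RNAs overlap within each line.

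Dubr was at a higher level in both deficient groups than in their own controls. In the P2 line it was at 11.8, 10.8, 13.4 and 13.95 CPM in P2WT replicates 3, 4, 7 and 10, and at 17.4, 17.3, 33.4 and 16.3 CPM in P2KO replicates 1, 5, 6 and 9. The groups did not overlap, but 3 of the P2KO libraries lay close together at 16.3 to 17.4 CPM and replicate 6 stood far above them. In the P2H2 line it was at 10.7, 10.2, 12.9 and 13.7 CPM in P2H2WT replicates 13, 14, 16 and 18, and at 19.3, 21.6, 25.1 and 26.7 CPM in P2H2KO replicates 11, 12, 15 and 17. Here no deficient library stood apart from the others, and all 4 lay above all 4 controls. The group means were 12.5 ± 1.43 CPM in P2WT, 21.1 ± 8.19 in P2KO, 11.9 ± 1.65 in P2H2WT and 23.2 ± 3.33 in P2H2KO (SD, n = 4). Counts of Dubr per library ran from 257 to 844.

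In the P2 line the log2 fold change of Dubr was 0.77 ± 0.23 (SE; 95% interval 0.24 to 1.30), with an adjusted p of 1 over 13734 genes (edgeR, two-sided), so it did not pass. None of the 6 RNAs was called in this comparison, against 0.0437% of all genes tested, and 1 of 6, Dubr, had an unadjusted p under 0.05, against 3.49% of all genes. DESeq2 gave Dubr an adjusted p of 0.504 and called none of the 6. Of all genes, 0.859% were higher in P2KO without overlap. Without P2KO replicate 6 the log2 fold change was 0.45 ± 0.10 (SE), with an adjusted p of 0.406, and over all 16 alternative settings it lay between 0.45 and 0.86 with adjusted p between 0.0985 and 1. In the P2H2 line, which chose Dubr, the log2 fold change was 0.97 ± 0.13 (SE; 95% interval 0.67 to 1.26), and 0.87 to 1.04 over its alternatives. There 0.0744% of all genes were called and 0.901% were higher without overlap, and nothing is read from Dubr's own call. The increase in the P2 line minus that in the P2H2 line was -0.21 ± 0.28 (SE; 95% interval -0.81 to 0.39), and -0.52 without P2KO replicate 6. This interval spans 0 and leaves room for a larger difference in either line. The 2 control groups differed in Dubr by a log2 fold change of 0.08 ± 0.20 (SE, P2WT minus P2H2WT; adjusted p = 0.955, edgeR).

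**Figure D2:**
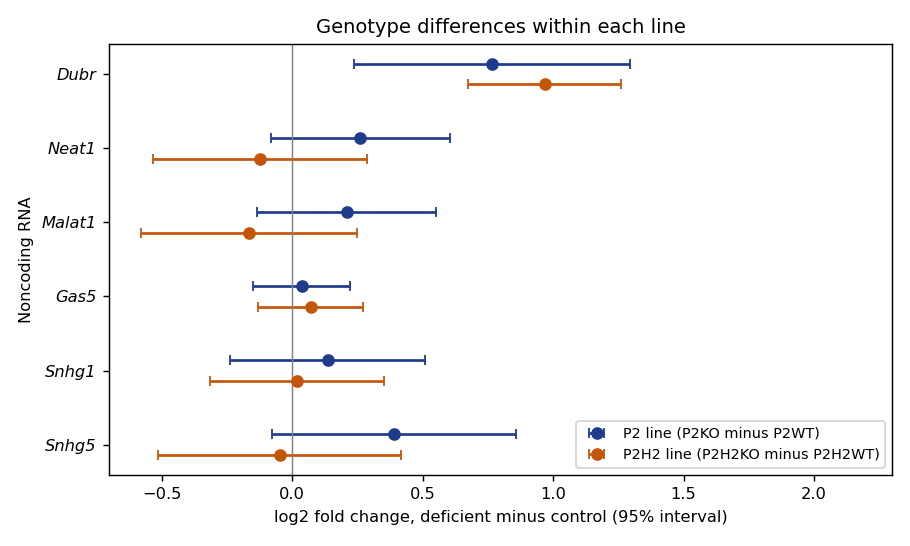
Log2 fold change of each RNA, deficient minus control (x axis), within the P2 line (blue) and the P2H2 line (orange); points are edgeR estimates and bars 95% intervals (n = 4 against 4). Only the 2 Dubr intervals, 0.24 to 1.30 and 0.67 to 1.26, lie wholly above 0; Dubr was chosen by the P2H2 comparison.

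The genes whose level ran most closely with Dubr over the 16 libraries, each centred on the mean of its line, were Ldha (Pearson r = 0.982 among 9542 candidate genes), Prelid1 (0.972), Zfp654 (0.969), Eno1 (0.965) and Aldoa (0.961). Ldha, Eno1 and Aldoa encode enzymes of glycolysis and lactate formation, and Prelid1 encodes a carrier of phospholipid in mitochondria. These correlations are descriptions, since the libraries share their cell content between genes, and the genotype difference that chose Dubr is part of them. Ldha was at 349 to 435 CPM in P2WT, 438 to 616 in P2KO, 388 to 461 in P2H2WT and 521 to 649 in P2H2KO, so within each line its groups did not overlap. Its log2 fold changes were 0.35 in the P2 line (adjusted p = 1) and 0.46 in the P2H2 line (adjusted p = 0.537), and neither passed edgeR's test. The groups of Zfp654 did not overlap in either line. Those of Prelid1, Eno1 and Aldoa did not overlap in the P2H2 line but did in the P2 line. There the lowest P2KO and highest P2WT libraries were at 156.0 and 158.2 CPM in Prelid1, 351.5 and 355.9 in Eno1, and 643.9 and 675.4 in Aldoa. With the genotype means removed as well, r with Ldha was 0.953, with Prelid1 0.938, with Aldoa 0.910, with Zfp654 0.895 and with Eno1 0.894. On that scale they ranked 26, 76, 295, 450 and 459 among the 9542 candidates, so many other genes followed Dubr more closely among libraries of the same group. P2KO replicate 6, far above its group in Dubr, was also the highest of its group in each of these genes. The r values were not computed without that library.

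**Figure D3:**
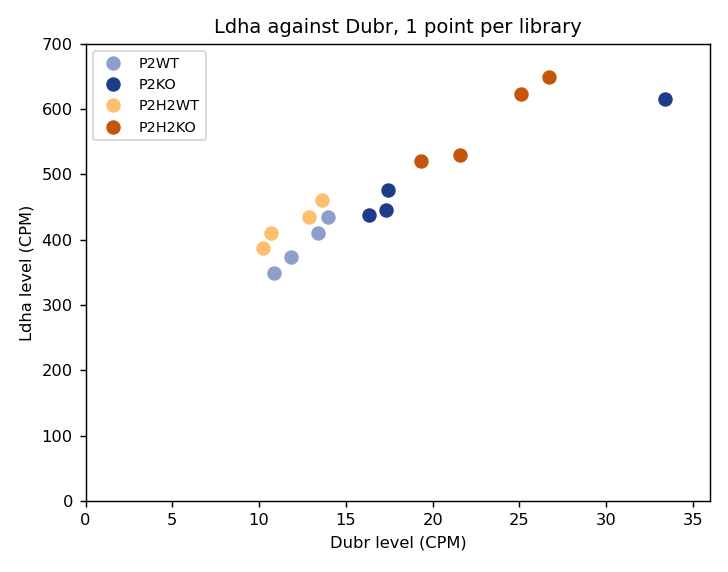
CPM of Ldha (y axis, from 0) against CPM of Dubr (x axis, from 0), with 1 point per library, coloured by group. The deficient libraries lie to the upper right of the controls of their own line, and P2KO replicate 6, at 33.4 CPM of Dubr, lies close to the P2H2KO libraries in Ldha.

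As a yardstick of size, 8 genes known as targets of hypoxia-inducible factors had a median log2 fold change of 0.75 in the P2 line, with 4 of 8 called by edgeR and 8 by DESeq2, and of 1.02 in the P2H2 line, with 8 of 8 called. Beside these, Dubr had 0.77 and 0.97. Without P2KO replicate 6 the former was 0.45, and the latter is the difference that chose Dubr. The lowest of the 8 genes in the P2 line was Pdk1, at 0.57 with all libraries. That value and the 0.45 of Dubr come from unlike sets of libraries and cannot be ranked. P2KO replicate 6 also had the highest sum of the 8 genes in its group (506.7 CPM). The medians of all genes tested were 0.02 and 0.0011. These 8 were picked from results of these libraries, so they are not independent evidence. Among 599 long noncoding genes tested in the P2 line 0 were called by edgeR, and at an unadjusted p under 0.05 there were 10 higher, Dubr among them, and 4 lower. In the P2H2 line 1 of 576 was called, which was Dubr. No gene within 100 kb of Dubr reached a mean of 1 CPM. Of 28 such neighbours of the other 5 RNAs, 0 were called by edgeR in either line and 0 had an unadjusted p under 0.05, with log2 fold changes between -0.18 and 0.25.

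Neat1, the paraspeckle scaffold, did not pass the test in either line. It was at 21.4, 16.1, 13.5 and 20.5 CPM in P2WT and at 19.4, 23.2, 23.4 and 19.2 CPM in P2KO (replicates in the order given for Dubr). In the P2H2 line it was at 15.2, 18.7, 18.7 and 27.2 CPM in the controls and at 18.2, 22.8, 16.2 and 15.97 CPM in P2H2KO. The groups overlapped in both lines. Log2 fold changes were 0.26 ± 0.15 (SE; 95% interval -0.08 to 0.60, adjusted p = 1) in the P2 line and -0.12 ± 0.18 (SE; -0.53 to 0.29, adjusted p = 0.9999) in the P2H2 line (edgeR). The effects differed by 0.38 ± 0.25 (SE; adjusted p = 0.9995), with a 95% interval of -0.16 to 0.91. Of 18 paraspeckle proteins tested, 0 were called in either line, by edgeR or by DESeq2, and at an unadjusted p under 0.05 there was 1 in the P2 line and 0 in the P2H2 line. That 1 was Rbm12, with a log2 fold change of 0.15 ± 0.06 (SE, adjusted p = 1, edgeR). Sfpq, a core paraspeckle protein, had a log2 fold change of 0.11 ± 0.07 in the P2 line (SE, adjusted p = 1).

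Malat1, the most abundant member, showed no genotype difference that passed either. It was at 321, 257, 192 and 242 CPM in P2WT and at 266, 343, 280 and 272 CPM in P2KO. It was at 220, 278, 208 and 305 CPM in P2H2WT and at 282, 258, 173 and 189 CPM in P2H2KO. The lowest library of the study and the next above it were thus both P2H2KO libraries, with the 2 others of that group within the range of the controls. Log2 fold changes were 0.21 ± 0.15 (SE; 95% interval -0.13 to 0.55, adjusted p = 1) and -0.16 ± 0.18 (SE; -0.58 to 0.25, adjusted p = 0.9999; edgeR), and they differed by 0.37 ± 0.25 (SE; adjusted p = 0.9995). Of 20 nuclear speckle proteins, 0 were called in either line by edgeR or DESeq2, and 0 had an unadjusted p under 0.05. In the P2 line 19 of the 20 had a value above 0, with a median log2 fold change of 0.08, and in the P2H2 line 15 of 20 had a value below 0, with a median of -0.02. Beside these stand the medians of all genes, 0.02 and 0.0011, with 42.2% and 49.5% of all genes below 0 in the P2 and P2H2 lines. Erythroid markers lay the same way, with 11 of 11 above 0 in the P2 line (median 0.13) and 10 of 11 below 0 in the P2H2 line (median -0.18), as did B cell markers, with 8 of 10 above 0 (median 0.04) and 10 of 10 below 0 (median -0.36). Their part in these values was not tested. Among other gene lists, paraspeckle proteins had 16 of 18 above 0 in the P2 line and 11 of 18 below 0 in the P2H2 line. Proteins of snoRNA particles had 9 of 10 above 0 and 7 of 10 below 0, respectively. Genes of nonsense-mediated decay had 13 of 14 above 0 in the P2 line and 8 of 14 above 0 in the P2H2 line. Translation genes with a pyrimidine tract had 14 of 20 and 16 of 20 below 0.

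The 2 P2H2KO libraries with little Malat1 carry the title suffix f. The suffix was unevenly spread, with 3 m and 1 f in P2KO and in P2H2WT, but 2 m and 2 f in P2WT and in P2H2KO. With the suffix as a covariate, Malat1 had log2 fold changes of 0.15 in the P2 line and -0.065 in the P2H2 line, and the effects differed by 0.21. Neat1 then had 0.22 and -0.069, with a difference of 0.28. In a fit of all 16 libraries with the groups in the model, Malat1 had a log2 fold change of 0.38 ± 0.10 (SE; m minus f; 95% interval 0.18 to 0.59), with an adjusted p of 0.101 (edgeR). The m mean lay above the f mean in 4 of 4 groups, at 289 against 217 CPM in P2WT, 296 against 272 in P2KO, 268 against 208 in P2H2WT and 270 against 181 in P2H2KO. Under 22 alternatives the adjusted p ran from 0.0107 (DESeq2) to 0.204, and it fell under the threshold in 4. Those were DESeq2, the neutrophil marker score as a covariate (0.0428), and the fits without P2KO replicate 6 (0.0419) or replicate 9 (0.0374). Snhg5 had a difference of 0.36 ± 0.14 in the same direction (SE; adjusted p = 0.236, edgeR), and it passed under 3 of its alternatives, with the neutrophil score (0.0402) and without P2KO replicate 6 (0.043) or replicate 9 (0.048). Neat1 and Snhg1 each had 0.21, Gas5 0.0012 and Dubr -0.12. None of the 6 was called, against 0.163% of all genes, and 2 of 6, Malat1 and Snhg5, had an unadjusted p under 0.05, against 17.5% of all genes. All 11 erythroid markers also had values above 0 for m minus f, with a median of 0.22 and 3 at an unadjusted p under 0.05. B cell markers had 9 of 10 above 0 (median 0.22) and T and NK cell markers 7 of 10 (median 0.18, 2 at an unadjusted p under 0.05). Monocyte and macrophage markers had 12 of 12 below 0 (median -0.16, 3 at an unadjusted p under 0.05), neutrophil markers 12 of 14 (median -0.09) and endothelial and stroma markers 8 of 10 (median -0.16, 3 at an unadjusted p under 0.05). Markers of eosinophils, basophils and mast cells were split evenly, with 5 on either side of 0, of which 2 above and 4 below had an unadjusted p under 0.05. Nuclear speckle proteins had 20 of 20 above 0 (median 0.08, 6 at an unadjusted p under 0.05). None of these genes was called by edgeR. DESeq2, which called more genes for the suffix, called 2 nuclear speckle proteins and 2 markers of eosinophils, basophils and mast cells. It also called 1 each of the T and NK cell, monocyte and macrophage, and endothelial and stroma lists. Of the erythroid, B cell and neutrophil lists it called 0. The part of cell content in the Malat1 difference was not tested beyond the fit with the neutrophil score. Among all genes tested, 51.4% had a value below 0 for m minus f.

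Gas5 was the steadiest of the 6, with a highest library only 1.32 times the lowest. It was at 59.7, 56.5, 59.2 and 54.5 CPM in P2WT and at 60.7, 63.7, 48.7 and 61.0 CPM in P2KO. It was at 57.0, 56.8, 59.0 and 48.8 CPM in P2H2WT and at 64.2, 57.3, 59.3 and 51.9 CPM in P2H2KO. The groups overlapped in both lines. Log2 fold changes were 0.04 ± 0.08 (SE; 95% interval -0.15 to 0.22, adjusted p = 1) and 0.07 ± 0.09 (SE; -0.13 to 0.27, adjusted p = 0.9999; edgeR). In both lines this was the narrowest interval of the 6 RNAs.

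Snhg1 was at 17.6, 16.3, 14.2 and 12.5 CPM in P2WT and at 17.2, 19.4, 11.5 and 18.01 CPM in P2KO. It was at 12.2, 15.2, 11.5 and 12.2 CPM in P2H2WT and at 16.1, 13.4, 10.3 and 12.1 CPM in P2H2KO. The groups overlapped within each line. Log2 fold changes were 0.14 ± 0.16 (SE, 95% interval -0.24 to 0.51, adjusted p = 1) in the P2 line and 0.02 ± 0.15 (SE, -0.31 to 0.35, adjusted p = 0.9999) in the P2H2 line (edgeR).

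Snhg5 was at 10.3, 9.46, 7.86 and 6.24 CPM in P2WT and at 11.6, 13.4, 7.19 and 11.9 CPM in P2KO. It was at 7.73, 9.72, 5.46 and 6.54 CPM in P2H2WT and at 8.48, 8.30, 6.14 and 5.55 CPM in P2H2KO. In the P2 line 3 of 4 deficient libraries lay above every control and replicate 6 fell among them. Its log2 fold change there was 0.39 ± 0.21 (SE; 95% interval -0.08 to 0.86, adjusted p = 1), against -0.05 ± 0.21 (SE; -0.51 to 0.42, adjusted p = 0.9999) in the P2H2 line, and the effects differed by 0.43 ± 0.31 (SE; adjusted p = 0.9995; edgeR).

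None of the 5 RNAs other than Dubr was called in the difference between the lines' effects, where 0% of all 14080 genes were called by edgeR, 212 genes (1.51%) and 0 of the 5 had an unadjusted p under 0.05, and DESeq2 also called 0. Between P2WT and P2H2WT none of the 6 was called either, against 0.227% of all genes, and DESeq2 called none of them. There 0 of 6 had an unadjusted p under 0.05, against 10% of all genes. Each line was deposited as its own table from its own libraries. A difference between the lines, or between their effects, therefore cannot be told apart from one between tables or animals. For these 5 RNAs, 390 combinations of genotype comparison and alternative setting gave 0 calls, with adjusted p between 0.406 and 1. The mean effect over both lines lay between 0.02 and 0.17 on the log2 scale for these 5, with an adjusted p of 0.9998 for each (edgeR), and 0.17% of all genes were called there. For Dubr it was 0.86 ± 0.14 (SE), a description only, since the comparison that chose Dubr is part of this mean.

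Other host genes of snoRNAs did not pass the test either. Of 21 listed, 17 were in the tables and 12 were tested, Gas5, Snhg1 and Snhg5 among them; edgeR called 0 in each line, DESeq2 called 0, and 0 had an unadjusted p under 0.05. The median log2 fold changes were 0.11 in the P2 line and -0.03 in the P2H2 line. Zfas1, a host of box C/D snoRNAs, had 0.06 ± 0.13 and -0.12 ± 0.12, and Snhg3 had 0.26 ± 0.17 and -0.32 ± 0.30 (SE; adjusted p = 1 and 0.9999 in the respective lines, edgeR). Neither the 14 genes of nonsense-mediated decay, which degrades host transcripts, nor the 10 proteins of snoRNA particles held a gene called by edgeR or DESeq2, or an unadjusted p under 0.05, in either line. The same was found for 20 genes of the translation machinery whose messages begin with a pyrimidine tract, with medians of -0.05 and -0.03. Among 15 other noncoding RNAs tested in the P2 line and 14 in the P2H2 line, 0 were called by edgeR or DESeq2, and 0 and 1 had an unadjusted p under 0.05. That 1 was Rmrp, the RNA of RNase MRP, with 0.84 ± 0.33 in the P2H2 line (SE, adjusted p = 0.9999, edgeR) at a mean of only 0.888 CPM.

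In each of the 4 groups the library with the largest neutrophil marker sum had the most Dubr and the least Gas5 of its group. These libraries were P2WT replicate 10, P2KO replicate 6, P2H2WT replicate 18 and P2H2KO replicate 17, with sums of 67110, 78760, 75040 and 89040 CPM. They also had the least Snhg5 in 3 groups and the least Snhg1 in 2. Neat1 and Malat1 showed no such order: these libraries had the most Neat1 in 2 groups and the least in 1, and the most Malat1 in 1 and the least in 0. P2KO replicate 6, which stood far above the rest of its group in Dubr, was among them. With the group means removed, Dubr had r = -0.80 with Gas5, -0.868 with Snhg1 and -0.864 with Snhg5 over 16 libraries, whereas Snhg1 and Snhg5 had r = 0.91 with each other. These r values lean on P2KO replicate 6, which had the most Dubr and the least Gas5, Snhg1 and Snhg5 of its group. They were not computed without it, and removing 4 group means leaves fewer free values than 16. Neat1 and Malat1, neighbours on chromosome 19, had r = 0.736.

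**Figure D4:**
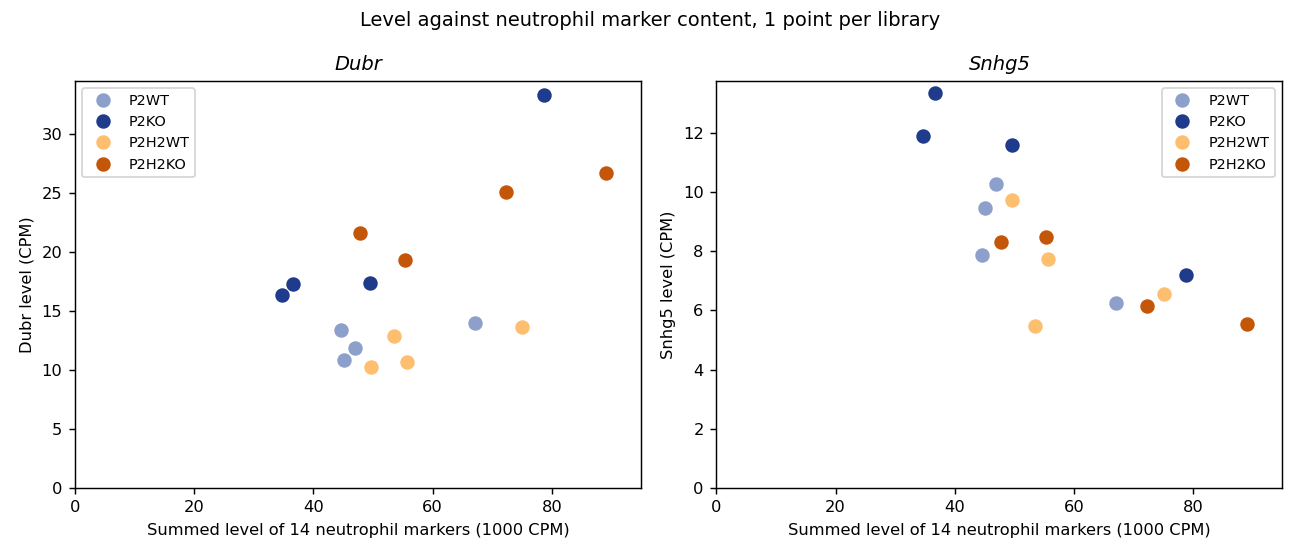
CPM of Dubr (left) and Snhg5 (right; y axes from 0) against the summed CPM of 14 neutrophil markers (x axis, in units of 1000 CPM), with 1 point per library, coloured by group. In 4 of 4 groups the library furthest to the right is the highest in Dubr, and in 3 of 4 it is the lowest in Snhg5.

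Neutrophil marker sums overlapped between deficient and control libraries, at 34760 to 78760 CPM in P2KO against 44550 to 67110 in P2WT, and at 47850 to 89040 in P2H2KO against 49570 to 75040 in P2H2WT. In the P2 line the markers' median log2 fold change was -0.01, while in the P2H2 line all 14 lay above 0, with a median of 0.19, 0 called by edgeR or DESeq2 and 1 at an unadjusted p under 0.05. Among all genes tested in the P2H2 line, 49.5% lay below 0. With the mean log2 level of the 14 markers as a covariate, an alternative chosen after seeing the data, the log2 fold change of Dubr was 0.80 ± 0.13 (SE, adjusted p = 0.0985, edgeR) in the P2 line and 0.87 in the P2H2 line. With the same covariate Gas5 had 0.0037 and 0.13, and Snhg5 0.30 and 0.09. Monocyte and macrophage markers summed to 2006 to 2385 CPM in P2KO against 2485 to 3004 in P2WT without overlap, and to 2082 to 3667 against 2339 to 3527 in the P2H2 line. Of these 12 markers 0 were called by either tool. At an unadjusted p under 0.05, 5 were lower in the P2 line and 6 in the P2H2 line (edgeR). Beside these stand 3.49% of all genes in the P2 line and 2.44% of protein-coding genes in the P2H2 line, in either direction. The T and NK cell list had 0 of 10 called by edgeR in either line and 2 called in the P2 line by DESeq2, with 3 and 0 at an unadjusted p under 0.05 in the 2 lines (edgeR). The lists of erythroid, B cell, eosinophil with basophil and mast cell, and endothelial with stroma markers had 0 called in either line by either tool. Endothelial and stroma sums differed between the lines, at 553.5 to 1423 CPM in P2WT and 620.1 to 1218 in P2KO. They were at 229.4 to 363.3 CPM in P2H2WT and 215.6 to 315.2 in P2H2KO. Between P2WT and P2H2WT 10 of 10 lay above 0 (median log2 fold change 1.67), 9 at an unadjusted p under 0.05, against 10% of all genes (edgeR). Of the 10, 1 was called by edgeR, against 0.227% of all genes, and 7 by DESeq2. The part of these cells in the values of the 6 RNAs was not tested.

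The patterns nearest to the other RNAs were led by other genes than those nearest to Dubr. On the same scale the nearest to Neat1 were Mbd6 (r = 0.868), Cables2 (0.848) and Baz2a (0.832), and to Malat1 Arhgef40 (0.886), Rsrc2 (0.878) and Nktr (0.872). Those nearest to Gas5 were Myc (0.892), which encodes a transcription factor of growth, Naa40 (0.876) and Retsat (0.864). Snhg1 ran closest with Cchcr1 (0.945), Myef2 (0.941) and Srsf6 (0.94), a splicing factor, and Snhg5 with Hdgfl2 (0.958), Alyref (0.953), an RNA export factor, and Tubgcp3 (0.938). For none of these 15 was a genotype difference called in either line (edgeR; adjusted p = 1 and 0.9999), with log2 fold changes between -0.14 and 0.37.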

How the data were processed

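RNA libraries of 16 samples were made from total RNA with standard Illumina protocols, per the labels. The authors deposited 2 tables of raw gene counts, 1 per line, with 8 libraries each. HTSeq and mm10 are named in the submitters' processing notes; aligner, annotation release and strand setting are not given in the sources used here. Reads shared by overlapping or near-identical genes may therefore have been dropped or assigned in an unknown way. No normalization had been applied. Of 49585 identifiers, 49326 matched a GENCODE M21 symbol, and the other 259 held 0.00714% of counts.

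Counts were filtered with filterByExpr, scaled with TMM and tested with glmQLFit (robust) and glmQLFTest of edgeR 4.0.16 in R 4.3.3. P-values were two-sided and adjusted by Benjamini-Hochberg over all genes, with a threshold of 0.05. Each line was fitted on its own 8 libraries, and the difference of effects, the mean effect, the 2 control groups and the title suffix on all 16. Levels are CPM computed here. Log2 CPM for correlations used a prior count of 2, with candidates at a mean of at least 5 CPM. The steps were tested on simulated data. Alternatives were other size factors, other filters, DESeq2 1.42.0, the suffix as a covariate, the pooled fit, leaving out each library and, added after seeing the data, a neutrophil marker score.

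The members and gene lists were chosen with earlier results of these data known. Genes named were the members, neighbours within 100 kb, the 5 (Dubr) or 3 genes nearest in pattern, up to 3 genes with the smallest p per list, and label checks. Zfas1, Gm37376, Mir6363, Ifi30 and Cct6a were named after their values were seen.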

Additional observations from a re-analysis of the deposited data

Results flagged for a closer look

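Dubr stood at 33.4 CPM in P2KO replicate 6, far from the 16.3 to 17.4 CPM of the other P2KO libraries. The gap to the nearest library was 0.937 of the group's range, above Dixon's critical value (95%) for 4 samples. Of 24 groups examined (6 RNAs in 4 groups), this was the 1 beyond the critical value, and chance gives about 1 in 20. The library had the largest neutrophil marker sum of its group (78760 CPM). Without it the log2 fold change of Dubr in the P2 line was 0.45 in place of 0.77. The cause was not tested.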

How the results depend on the processing

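No paired analysis was possible because the groups share no replicate numbers. Of 738 alternative values, 691 kept their direction and their side of the threshold. The number of genes called was 6 in the P2 line, but 22 with DESeq2 (13 higher, 9 lower), 10 in the fit of all 16 libraries and 14 with the neutrophil score. It was 4 to 6 when 1 library was left out. In the P2H2 line it was 10, but 39 with DESeq2, and 6 to 9 with 1 library left out, the lowest without P2H2WT replicate 13. For the mean effect it was 24, but 63 with DESeq2 and 48 with the neutrophil score, and 15 (without P2WT replicate 4) to 30 with 1 left out. Between the control groups it was 32, but 9 without a filter, 0 with at least 10 counts in every library (edgeR; 1086 genes at an unadjusted p under 0.05), 266 with DESeq2 and 124 with the suffix as a covariate. With 1 library left out it was 0 to 182 (the highest without P2KO replicate 9). For the suffix it was 23, but 58 without a filter, 9 with at least 10 counts, 417 with DESeq2 and 575 with the neutrophil score, and 17 to 1066 with 1 left out, the highest without P2KO replicate 9. The difference of effects gave 0 calls by edgeR and by DESeq2.

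Values near 0 changed sign without a call. Snhg5 in the P2H2 line was 0.081 with the suffix and 0.093 with the neutrophil score as covariates. Malat1 between the controls was 0.0012 with upper-quartile factors, 0.0017 with at least 10 counts and 0.089 with the suffix. With the neutrophil score, Snhg1 in the difference of effects was -0.062 and Gas5 for the suffix was -0.016. With 1 library left out, Gas5 ran from -0.0043 to 0.12 in the P2 line, from -0.11 to 0.034 in the difference of effects, from -0.0039 to 0.084 between the controls and from -0.029 to 0.035 for the suffix. In the P2H2 line Neat1 ran from -0.25 to 0.057, Snhg1 from -0.10 to 0.12 and Snhg5 from -0.17 to 0.11. Malat1 ran from -0.047 to 0.082 in the mean effect and from -0.15 to 0.10 between the controls, where Neat1 ran from -0.27 to 0.029. The cause was not tested. No scaling moved the median of all genes by more than 0.0254 (log2). Counts per library were as low as 123 for Snhg5, and the number of libraries limits the precision of all 6 RNAs.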
